A study of Drosophila melanogaster with 2 samples.

Results

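Rab GTPases are small membrane-bound switches that direct vesicle traffic. A Rab binds GTP through an exchange factor (GEF), is switched off by a GTPase-activating protein (GAP), and marks one compartment, such as the early endosome for Rab5 or the recycling endosome for Rab11. Some members serve every cell, whereas others, such as Rab3 on synaptic vesicles, are known mainly from neurons.

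The members were chosen by name, as protein-coding genes whose symbol starts with Rab or RabX and a digit. There were 36 of these among 13946 protein-coding genes, of which 33 are Rab GTPase genes. The other 3 are Rab3-GEF, Rab3-GAP and Rab3GAP1, regulators that carry the name of Rab3, and they are counted apart. The 33 were grouped by textbook role into 13 general trafficking genes, 4 neuronal genes (Rab3, Rab26, Rab27 and RabX4), 7 other conserved genes, 4 further RabX genes and 5 short Rab9-like genes on X. This grouping was made with earlier results of these data known. Of the 33, 13 lie on X and 5 on each of the arms 2L, 2R, 3L and 3R.

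Open chromatin was mapped in ML-DmD17-c3 (D17) cells, which come from the haltere disc of Drosophila larvae, within a study of Polycomb group proteins. The assay was ATAC-seq, where Tn5 transposase inserts adapters into DNA that is not packed away. There are 2 libraries in 1 group, with no treatment or mutation in the labels, and 1 peak list of 26571 regions stands for both, so no replicate values exist here and no test over samples can be made. The labels do not say whether the libraries came from separate cultures. Each region carries the authors' fold, the read pileup at its summit over the local background. Reads given for a region are this pileup at the summit, not a count over the whole region. Beside a fold stands its 95% interval (exact Poisson limits of the pileup at a fixed background), which covers counting error only. A region counted for a gene when it overlapped the gene or the 500 bp beyond either end. Without strand, the ends are called lower and upper by coordinate (Release 6), and start sites cannot be told from stops. A region open in a few cells and one weakly open in all cells cannot be told apart in such bulk libraries, and an open region is not a measure of transcription.

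Marker genes of the labelled tissue and of other cell types all had a region. The 6 wing and haltere disc markers (vg, ap, nub, sd, Ubx, hth) had highest folds of 2.45 at vg to 10.5 at hth, with a median of 6.32, and 5 of 6 had a strong region, one among the 10% with the highest fold. The 4 neuron markers had 5.69 at elav, 2.84 at Syt1, 2.58 at brp and 1.97 at nSyb, with a median of 2.71, and 1 of 4 had a strong region. The 3 hemocyte markers had 5.03 at gcm, 4.59 at srp and 1.90 at Hml, and 2 of 3 had a strong region. Of all protein-coding genes, 78.5% had a region and 15.3% a strong one. Every marker but gcm is over 5 kb long, and in that class the shares were 93.4% and 37.8%. The disc markers had a median length of 31912 bp. These lists are short and no difference between them was tested. The summit pileup of all regions ran from 62 to 2908 reads with a median of 101. No region number was missing from the list between the regions that flank each of the 36 members.

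Most Rab GTPase genes had an accessible region, about as often as other genes. A region lay in or beside 27 of 33 (81.8%), against 78.5% of all protein-coding genes. A region overlapped a window of 500 bp around either end in 26 of 33, against 68.6% of all genes. With the summit itself required inside that window, the count was 13 of 33, against 44.6% of all genes, so the side on which the family lay depended on this choice. The median number of regions per gene was 1 in both sets. Among genes with a region, the median highest fold was 2.05 in the Rab GTPase genes and 2.17 in all genes. The family as a whole therefore stood near the background, and its members ranged from no region to a fold of 5.51.

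Ranked by fold, strong regions among the 36 members were those of 6 general trafficking genes. A strong region was one of fold at least 2.9986, and 6 of 36 members (16.7%) is near the 15.3% of all protein-coding genes that had one. Rab5, Rab14, Rab35, Rab11, Rab1 and Rab7 each had 1, which made 6 of 13 general trafficking genes (46.2%), 0 of 4 neuronal genes, 0 of 7 other conserved genes, 0 of 4 further RabX genes, 0 of 5 Rab9-like genes and 0 of 3 Rab3 regulators, against 15.3% of all protein-coding genes. No test was made over so few genes, which are not replicates of each other. With the limit moved to the 20% of regions with the highest fold, Rab10, Rab2, Rab23 and Rab30 joined the 6, with 0 of 4 neuronal genes, against 27.6% of all protein-coding genes, so 10 of 36 members lay near the background.

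**Figure D1:**
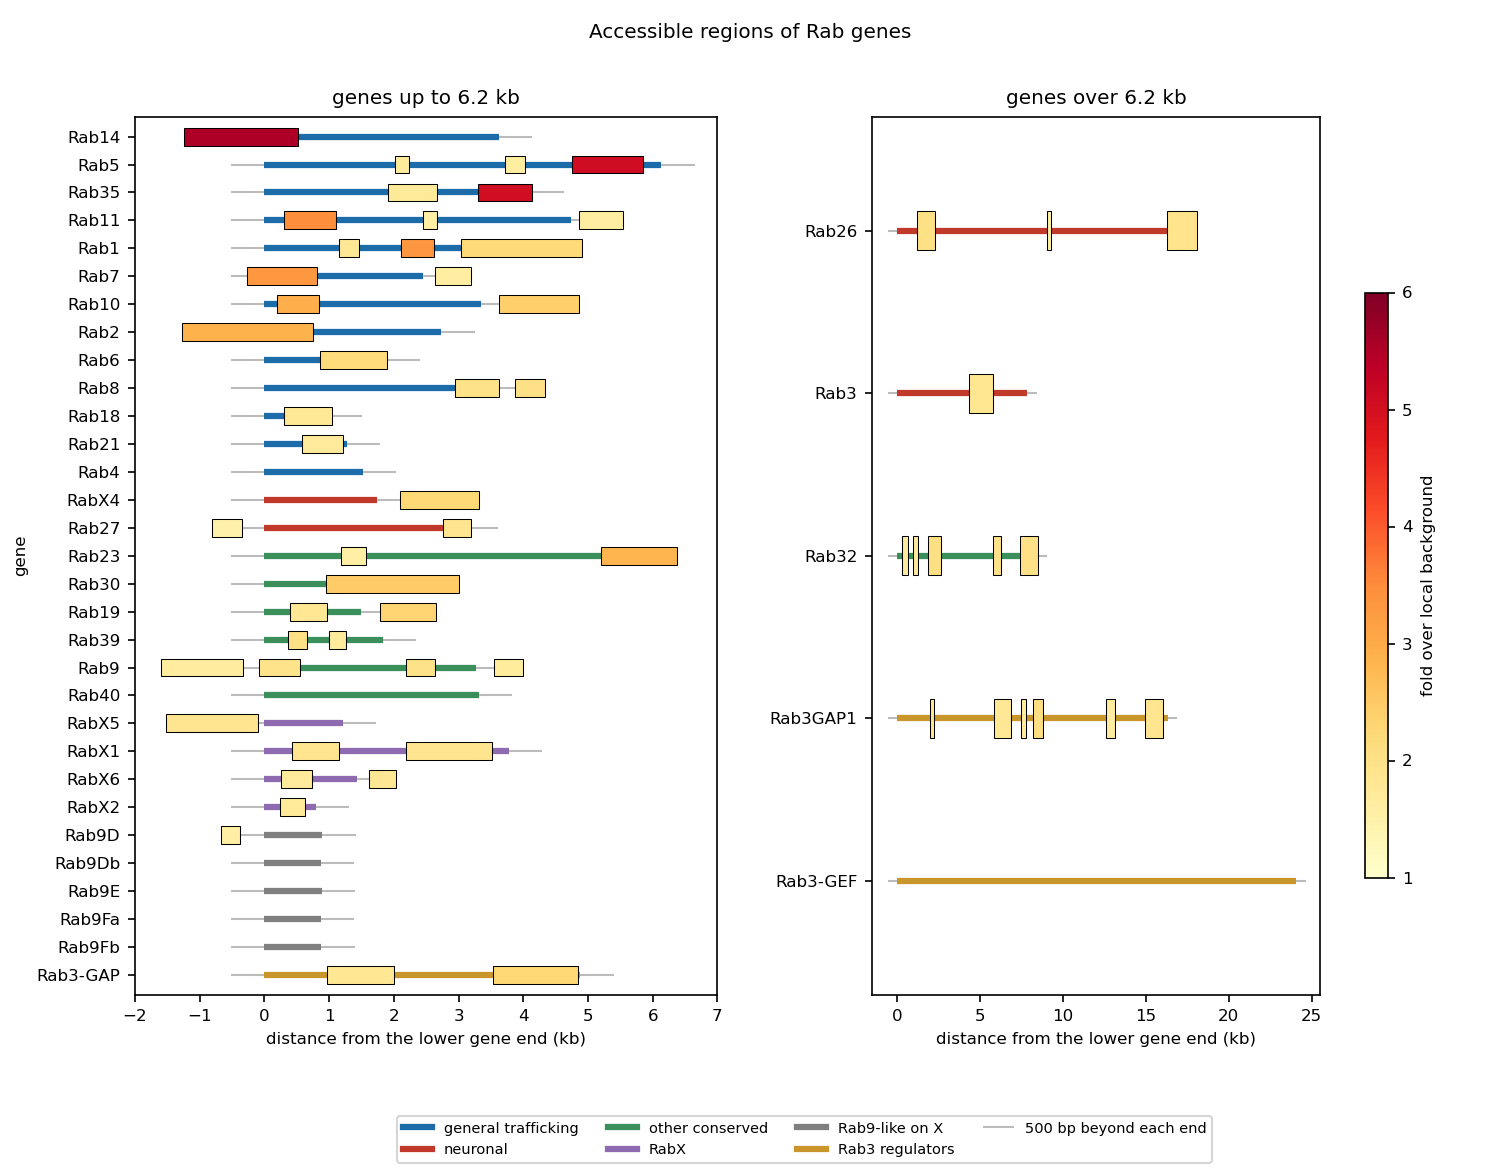
Accessible regions (boxes, coloured by fold over local background) along each gene (thick line) and 500 bp beyond each end (thin line), in kb from the lower gene end, for genes up to 6.2 kb (left) and longer genes (right). The darkest boxes are at Rab14 (5.51), Rab5 (5.08) and Rab35 (5.05), and Rab4, Rab40, Rab9Db, Rab9E, Rab9Fa, Rab9Fb and Rab3-GEF have none.

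Rab14, an endosomal and phagosomal Rab, had the highest fold of the family. Its only region, at 2L 14353903 to 14355658, spanned the lower gene end at a fold of 5.51 (4.90 to 6.18), from 290 reads over a background of 51.8. The summit lay 241 bp inside Rab14 and 301 bp from an end of the neighbour l(2)34Fd, which the region also overlapped. This fold was above the highest fold of 97.1% of protein-coding genes, counting genes with no region as 0.

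Rab5, which organises the early endosome and the first steps of endocytosis, had the highest pileup. Its strong region, at 2L 2363892 to 2364991, had a summit pileup of 332 reads over a background of 64.5, a fold of 5.08 (4.55 to 5.66). The summit lay inside the gene, 881 bp below the upper end, and no other annotated gene overlapped the region. Further inside Rab5 were weak regions with folds of 1.69 and 1.64.

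Rab35, which acts in recycling to the plasma membrane and in cytokinesis, was the X-linked member with a strong region. The region, at X 20159073 to 20159900, had 238 reads over a background of 46.3, a fold of 5.05 (4.43 to 5.73), with its summit 264 bp inside the upper end. A weak region of fold 1.74 lay further inside. The intervals of Rab14, Rab5 and Rab35 overlapped one another, so counting error does not order them, and their lower bounds were above the upper bounds of all other members, of which the highest was 3.99 at Rab11.

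Rab11, Rab1 and Rab7 formed a second level. Rab11, the recycling endosome Rab, had a fold of 3.49 (3.04 to 3.99) at 3R 21111711 to 21112510, with 209 reads and the summit 796 bp inside the lower end. Rab1, needed for transport from the endoplasmic reticulum to the Golgi, had 3.35 (2.90 to 3.85) at 3R 21268138 to 21268652, with 196 reads and the summit 656 bp inside the upper end. Rab7, the late endosome and lysosome Rab, had 3.31 (2.87 to 3.80) at 3R 23992739 to 23993820, with 201 reads and the summit 524 bp inside the lower end. The intervals of Rab1 and Rab7 include the limit for a strong region and that of Rab11 does not.

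Rab10 and Rab2 lay just below that limit. Rab10, which in fly follicle cells directs basement membrane secretion, had 2.93 (2.52 to 3.38) at X 20251525 to 20252178, with 183 reads. Rab2, which acts at the Golgi, had 2.89 (2.46 to 3.38) at 2R 6695467 to 6697482, with 155 reads. The Rab2 region was 2016 bp wide, crossed the lower gene end and had its summit inside the neighbour Mob4, so it was nearer to Mob4 than to Rab2.

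The remaining general trafficking genes had regions further below the limit for a strong region, or none. Highest folds were 2.19 at Rab6, a Golgi Rab, and 2.00 at Rab8, which serves exocytosis. The summit of that Rab8 region lay 586 bp past the gene, inside Usp32, and a region of fold 1.98 had its summit inside Rab8. Highest folds were 1.77 at Rab18, known in mammals from lipid droplets, and 1.72 at Rab21, known in mammals from integrin traffic. Rab4, which returns cargo from early endosomes, had no region in its window (gene at 2R 17573462 to 17574979). The nearest region ended 608 bp from the Rab4 gene, and 11 regions lay within 10 kb of it, against a median of 7 for all protein-coding genes. Rab21 lay in sparse surroundings, where its own region was the only one in 119.2 kb.

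**Figure D2:**
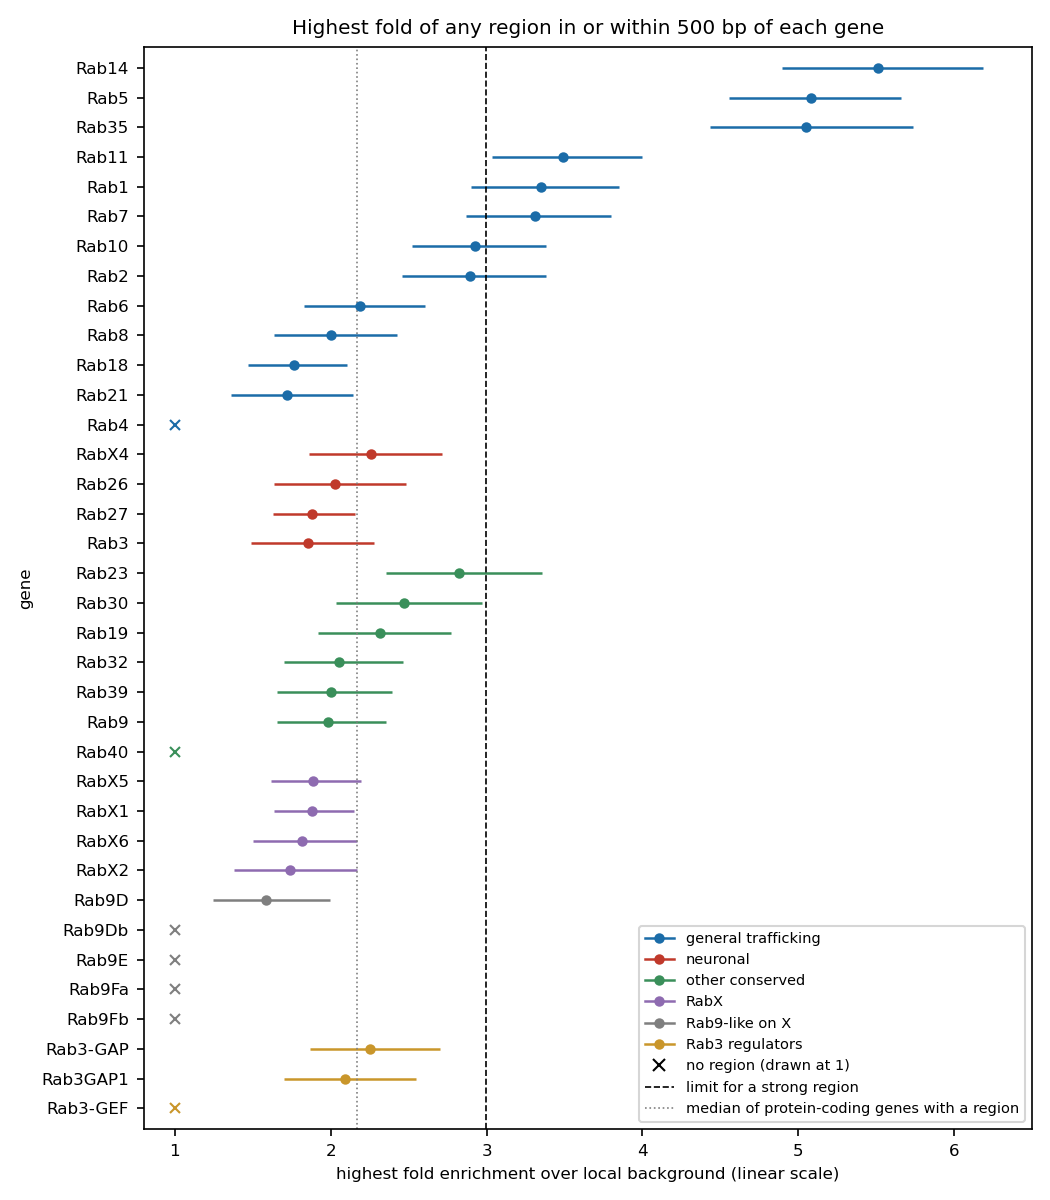
Highest fold over local background among the regions of each gene, on a linear axis, with exact 95% Poisson intervals as bars, coloured by role. The 6 general trafficking genes Rab14, Rab5, Rab35, Rab11, Rab1 and Rab7 lie past the dashed limit of 2.9986, the 4 neuronal genes lie between 1.85 and 2.26, and crosses at 1 mark genes with no region.

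The neuronal genes all had a region, against 78.5% of all genes, but none had a strong one. Their highest folds ran from 1.85 to 2.26, and the median over all protein-coding genes with a region was 2.17. Rab3, which guides synaptic vesicles to release sites, had 1 region at 2R 10725664 to 10727143 with a fold of 1.85 (1.49 to 2.28) and 88 reads, 3268 bp from the nearer gene end and inside the overlapping gene CAH13. Rab3 was the neuronal member with no region within 500 bp of an end. Rab26, known in mammals from secretory and synaptic vesicles, had 3 regions over 16254 bp, with folds of 2.03 (1.64 to 2.49) at 3L 21319957 to 21321078, then 1.54 and 1.92. The last had its summit 1511 bp past the gene, inside Tsr1.

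Rab27, an exocytosis Rab, had folds of 1.88 (1.63 to 2.15) at X 1476639 to 1477072 and 1.47 past the lower end, inside CG14780. The first summit lay 59 bp inside the upper gene end and 148 bp from an end of mei-38. RabX4, whose place among the neuronal genes is less certain than that of the others, had no region overlapping the gene itself. Its 1 region, at 3R 24828760 to 24829983 and 351 bp past the gene, had a fold of 2.26 (1.86 to 2.71) and its summit inside Kaz.

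General trafficking genes had higher values than neuronal genes in fold, with much overlap, and a similar number of regions. The median highest fold was 3.12 over the 12 general trafficking genes with a region and 1.95 over the 4 neuronal genes. The median number of regions was 2 in general trafficking genes and 1.5 in neuronal genes, a gap that went to 0 or turned round with other windows. Per kb of window the medians were 0.436 regions in general trafficking genes and 0.269 in neuronal genes. In 29 of 48 pairs of a general trafficking and a neuronal gene the interval of the general gene's highest fold lay above that of the neuronal gene, in 19 the intervals overlapped, and in 0 the neuronal gene lay above. The 6 genes with a strong region lay above all 4 neuronal genes, Rab10 above 3 of them and Rab2 above 2. The 48 pairs reuse the same genes, and most of the 29 come from those 6 genes. How often the intervals of other protein-coding genes lie above these 4 neuronal genes was not counted. The upper bounds of the 4 ran from 2.15 at Rab27 to 2.71 at RabX4, and the median highest fold of all protein-coding genes with a region was 2.17. The pair counts therefore cannot be called particular to general trafficking genes. Intervals of Rab6, Rab8, Rab18 and Rab21 overlapped those of every neuronal gene.

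Local background was not the same for each gene, and among the neuronal genes it was high at Rab27. The highest summit of Rab27 held 202 reads, close to the 209 of Rab11, but over a background of 107 reads against 59.2. Regions within 100 kb of Rab27 had a median background of 75.2 reads, against 47.6 over all X regions. Ranked by highest pileup, Rab27 was at place 6 of the 29 members with a region, and by fold at place 23. Rab3, Rab26 and RabX4 had 88, 106 and 112 reads at their highest pileups. With the 10% of regions with the highest pileup in place of fold, 7 general trafficking genes, 1 neuronal gene (Rab27) and RabX1 passed, against 15.2% of all protein-coding genes. The part of background in the fold of Rab27 was not tested. The lowest recovered background of the list was 44.4 reads, and the highest-fold regions of Rab26, Rab23, Rab30, RabX2, Rab9D and Rab21 had this value. Their folds therefore stand over the lowest background in the list, and whether it is a value of their own surroundings was not tested.

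**Figure D3:**
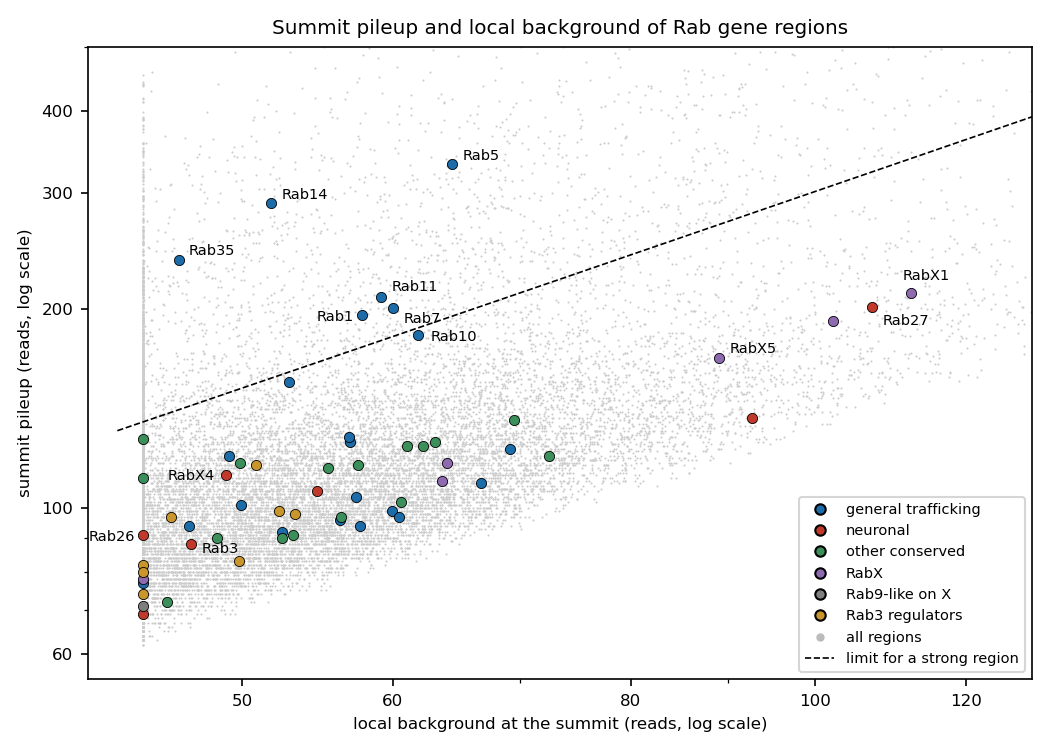
Summit pileup against local background, both in reads on log scales, for every region of the 36 members (coloured by role) and for the other regions of the list within these axes (grey). Regions above the dashed line are strong, and Rab27 and RabX1 reach the pileups of Rab7 and Rab11 at backgrounds of 107 and 112 reads.

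Gene length also differed between the sets. Median length was 3032 bp for the general trafficking genes and 5480 bp for the neuronal genes, which run from 1745 to 16254 bp. Longer genes carry strong regions more often, with 3.39% of protein-coding genes under 1 kb, 6.27% of those from 1 to 2 kb, 12.3% of those from 2 to 5 kb and 37.8% of those over 5 kb. Within the class from 2 to 5 kb, 5 of 8 general trafficking genes had a strong region, and Rab27, the neuronal gene of that class, had none. Over 5 kb, Rab5 had one and Rab3 and Rab26 had none. The 4 general trafficking genes under 2 kb had none, nor had RabX4.

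Having any region followed length in the Rab GTPase genes much as in all genes. A region was found for 3 of 7 under 1 kb (47.5% of all genes), 7 of 8 from 1 to 2 kb (76.3%), 12 of 13 from 2 to 5 kb (88.7%) and 5 of 5 over 5 kb (93.4%). Strong regions numbered 0 of 7, 0 of 8, 5 of 13 and 1 of 5 in these classes.

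**Figure D4:**
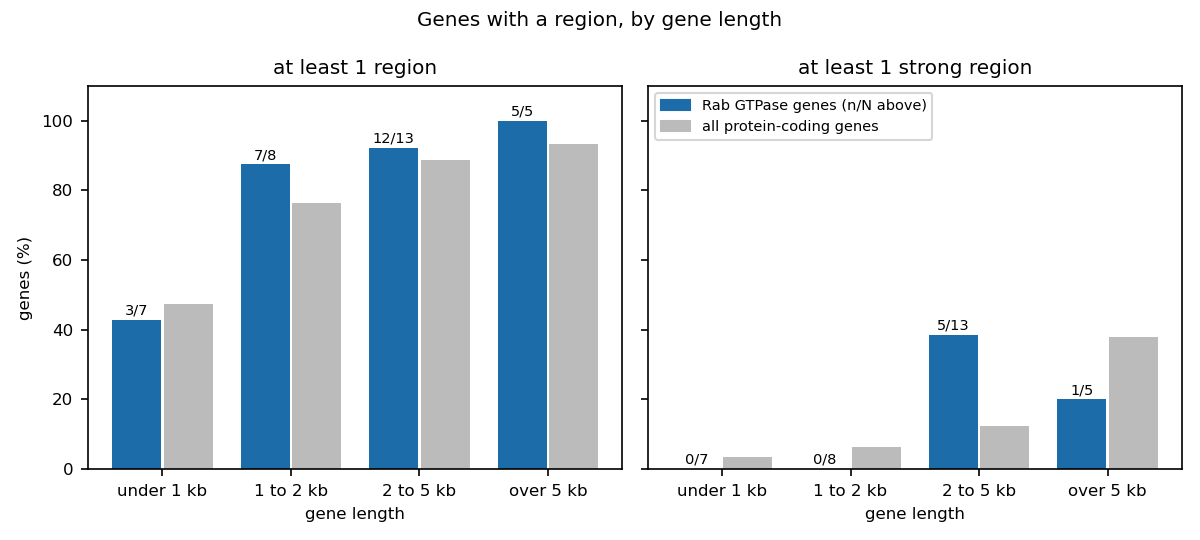
Share of Rab GTPase genes (blue, with counts above) and of all protein-coding genes (grey) with at least 1 region (left) or 1 strong region (right), in percent by gene length. For strong regions the blue bar exceeds the grey one in the class from 2 to 5 kb alone, with 5 of 13 genes against 12.3%.

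The strong regions of the family had their summits inside the genes. The regions of Rab14, Rab7 and Rab35 themselves crossed the nearer gene end. Those of Rab14 and Rab7 also overlapped a neighbour, l(2)34Fd and Epp. In all 6 the summit was inside the gene, against 61.1% of the 2135 protein-coding genes whose highest region is strong and 45.3% of those from 2 to 5 kb. The distance to the nearer end was 241 to 881 bp with a median of 590 bp, against 597 bp in the 2135 genes and 437 bp in those from 2 to 5 kb. Within 500 bp of an end were 2 of the 6 summits (33.3%), against 44% of the 2135 genes and 56.3% of those from 2 to 5 kb. None of the 6 had its summit within 200 bp of an end, where 23.7% of the 2135 genes had theirs. In all 12 general trafficking genes with a region, the highest summit lay within 1000 bp of an end, against 72.5% of all genes with a region and 86.1% of genes from 2 to 5 kb whose highest region is strong. The neuronal genes had 2 of 4 there, with the long genes Rab3 (7869 bp) and Rab26 (16254 bp) farther away. A summit inside a gene under 2 kb, as in Rab6, Rab18 and Rab21, is always within 1000 bp of an end. These shares therefore depend on gene length. The share for genes of like length, with a highest region of any fold, was not counted.

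Among the other conserved genes, 6 of 7 had a region, against 78.5% of all genes. The highest folds were at regions shared with a neighbour. Rab23, which acts in planar polarity in the fly wing, had 2.82 (2.36 to 3.35) at 3R 5685257 to 5686430, with its summit inside plx, a gene of the TBC domain family to which Rab GAPs belong. Rab30 had 2.47 (2.04 to 2.97) with the summit inside Caper, and Rab19 had 2.32 with the summit inside Arl5, another small GTPase gene. Rab32, the pigment granule Rab of the fly eye, had 5 regions over 8479 bp, none above 2.05. Rab9, a Rab of traffic from late endosomes to the Golgi, had 4 regions with folds of 1.65 to 1.98. That number was above those of 96.3% of genes from 2 to 5 kb. However, 2 of the 4 were nearer to another gene, with summits inside RtcB and CG10237, and only 1 had its summit inside Rab9. Rab39 had 2 regions, the higher at 2.00.

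Rab40, whose relatives in other animals recruit a ubiquitin ligase, had nothing near it (gene at X 12459796 to 12463112). No region lay within 10 kb, the nearest ones were 21635 bp below and 30187 bp above the gene, and this region-free stretch of 55.1 kb was longer than 98.5% of those on X. Without a region in the list, the value at Rab40 is not known beyond that no region passed the authors' calling there.

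The 4 further RabX genes all had a region, against 78.5% of all genes, with highest folds of 1.74 to 1.89. RabX1 had 192 and 212 reads at its summits over backgrounds of 102 and 112, with folds of 1.87 and 1.88, and the median background within 100 kb was 81.9 reads, against 50.1 on 2R. By pileup RabX1 was at place 4 of the members with a region, and by fold at place 22. RabX5 had 1.89 (1.62 to 2.19) at 3L 1667373 to 1668799, a region whose summit was nearer to RpL23A, over a background of 89.0 reads. RabX6 had 1.81 and 1.72, the first inside the neighbour Vti1a, a SNARE gene. RabX2, at 791 bp the shortest member, had 1.74.

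Regions were few at the Rab9-like genes on X, as at other short X-linked genes. Of Rab9D, Rab9Db, Rab9E, Rab9Fa and Rab9Fb, which are 871 to 897 bp long, only Rab9D had a region in its window, 384 bp outside the gene, with a fold of 1.59 (1.24 to 2.00) and 71 reads at X 10588415 to 10588705. The nearest regions to Rab9Db, Rab9E, Rab9Fa and Rab9Fb were 590, 636, 1676 and 3125 bp away. The count was 1 of 5, against 30.1% of protein-coding genes under 1 kb on X, which for 5 genes is near the background. The surroundings were not empty, with 6 to 8 regions within 10 kb of each, against a median of 6 for protein-coding genes on X. These genes carry the same base name, and whether reads could be placed uniquely among them was not tested.

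On X, 8 of 13 Rab GTPase genes had a region, against 70.1% of X-linked protein-coding genes, and 1 of 13 a strong one, against 18.7%. Outside the Rab9-like genes it was 7 of 8 and 1 of 8. On the autosomes, 19 of 20 had a region (80.2% of genes there) and 5 of 20 a strong one (14.7%).

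The 3 genes named after Rab3 split widely. Rab3-GEF, which activates Rab3, had no region over its 24081 bp (X 15089682 to 15113762), although 93.4% of genes over 5 kb had one. Its region-free stretch was 59.3 kb, longer than 98.6% of those on X. Rab3GAP1, a subunit of the complex that inactivates Rab3, had 6 regions with folds of 1.65 to 2.09, and the summits of 5 of them also lay inside the overlapping gene haf. Its partner Rab3-GAP had 2 regions, the higher at 2.26 (1.87 to 2.70) at 2L 12061842 to 12063146.

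Most genes that act with the Rabs also had a region. Of the 30 regulators and effectors other than those 3, 30 had a region, against 78.5% of all genes, and 7 a strong one (23.3%, against 15.3%). Their median length was 3624 bp, against 2161 bp for all genes, and 88.7% of genes from 2 to 5 kb had a region. A strong region was found in 12.3% of genes from 2 to 5 kb and in 37.8% of those over 5 kb. The part of gene length in the 23.3% was not tested. The GAP gene sky (47597 bp) reached 6.0, and the Rab11 effector genes Rip11 (12007 bp) and nuf (42381 bp) reached 4.91 and 4.89. By class, strong regions were found in 1 of 4 prenylation and recycling genes, 0 of 9 GEFs, 2 of 9 GAPs and 4 of 11 effectors, where GEFs and GAPs include the Rab3 regulators.

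Of 15 presynaptic genes set beside Rab3, 13 had a region, against 78.5% of all genes, and 3 a strong one, against 15.3%. Their median length was 24384 bp, and in the class over 5 kb the shares were 93.4% and 37.8%. A region lay within 500 bp of an end in 7 of 15, against 68.6% of all genes. Rph, which encodes the Rab3 effector rabphilin, reached 4.31, while the syntaxin gene Syx1A and the calcium channel gene cac had none. Of 24 other Ras superfamily genes 20 had a region, against 78.5% of all genes, and 11 a strong one (45.8%, against 15.3%), and their median highest fold was 3.10. Rala, a GTPase gene of the exocyst pathway, reached 7.41, and Ras85D and Arl1 had no region. General trafficking Rab genes (46.2% with a strong region, median highest fold 3.12) thus had values close to those of the other Ras superfamily genes, and no difference between these lists was tested.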

How the data were processed

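ATAC-seq was done on 2 D17 libraries of 1 group with a commercial kit, per the labels. Tools in the submitters' processing notes are MACS2 2.2.6, bedtools 2.29.2, Bowtie2 2.3.5.1, Trim Galore 0.6.4 and SAMtools 1.13. Builds named there are dm6 and BDGP6, which are Release 6. The sources used here do not give transposase shifting, treatment of reads with several matches, or pooling. The authors deposited 1 list with a fold (ratio of summit pileup to local background), a score per region, and −log10 p-value and −log10 q-value. Its column meanings were read from layout and values. The authors' fold and score are used within this list only.

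Summit pileup was recovered from the deposited fold and −log10 p, taking fold as (pileup + 1)/(background + 1) and p from the Poisson upper tail. The largest relative error was 2.11e-05 over 26571 regions. Recovery, intervals and overlaps were tested on simulated data. Genes came from a Release 6 table without strand or sequence, so the planned start-site window became either gene end and no sequence is shown. Overlap was at least 1 bp. Counts stand beside those of all 13946 protein-coding genes, with no list test. Of 36 regulator and effector names, Ric1 and RILPL matched no gene, and Vps33 is car. Members with a strong or no region, the highest per role and neuronal members are described in full. Members and lists were chosen with earlier results of these data known. Alternatives covered windows, overlap, region subsets, neighbours, list membership and limits. Python 3.11.15, numpy 2.4.6, pandas 2.3.3, SciPy 1.17.1 and matplotlib 3.10.9 were used.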

Additional observations from a re-analysis of the deposited data

How the results depend on the processing

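Members with a region numbered 29 of 36 and stayed within 24 to 32 under every window, overlap, score and neighbour setting tried. The 6 with a strong region were the same genes in each of those settings. They were 3 with the 5% of highest folds (Rab5, Rab14 and Rab35), against 7.89% of all genes, and 10 with the 20% of highest folds, against 27.6%. They were 7 with the 10% of highest scores, against 15.3%, and 9 with the 10% of highest pileups, against 15.2%. As shares of the 36, the first and second counts lay near those of all genes. Both alternatives that use pileup were chosen after seeing the data. Members with a region around an end numbered 28, but 13 with the summit inside the window, against 44.6% of all genes. The difference in median number of regions, general trafficking minus neuronal, was 0.5 and did not hold. It was 0 with no flank, with 200 or 1000 bp of flank, with the higher-scoring 50% of regions, without regions nearer to another gene and without RabX4, -0.5 with the summit inside the window, and 0.167 when taken per kb; the cause was not tested. The difference in median highest fold, 1.17, stayed between 0.859 and 1.43, and by pileup it was 80.5 reads. No paired analysis was possible because both libraries are in 1 group and share 1 list, so no library could be left out either. At this depth the lowest recovered pileup was 62 reads, and weaker openings are not in the list.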
